A study of Rattus norvegicus with 2 samples.

Results

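The platelet-derived growth factor (PDGF) system was examined in cultured oligodendrocyte precursor cells (OPCs), the dividing glial cells from which myelinating oligodendrocytes arise. All rows of the expression table named Pdgfa, Pdgfb, Pdgfc, Pdgfd, Pdgfra, Pdgfrb or Pdgfrl were taken, and all 7 were found among the table's 17049 genes, with the gene numbers 25266, 24628, 79429, 66018, 25267, 24629 and 290771 in that order. Both groups were primary OPCs of wild-type adult rat brain, grown in OGM medium at 37 °C under 5% CO2. The first received 1 µM amyloid-β (Aβ), the peptide that accumulates in Alzheimer's plaques, for 2 days, and the control received DMSO, a solvent. The labels give no age beyond adult and no number or pooling of animals. Each group was 1 library, and the estimated reads came to 15704932 (Aβ) and 15663751 (control). With no replicate, no difference was tested, and every 95% interval given covers counting error only and compares 2 libraries, not the conditions.

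PDGFs are secreted as dimers of A, B, C and D chains. Dimers of the A, B and C chains activate the α receptor encoded by Pdgfra, while the B and D chains activate the β receptor encoded by Pdgfrb. PDGF-AA acting on the α receptor is the classical mitogen of OPCs, which keeps them dividing and delays their differentiation, and the β receptor is best known in pericytes and smooth muscle. The question put to these genes was whether OPCs exposed to Aβ still held the transcripts of this growth factor system at the control level.

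The receptor gene Pdgfra and the A chain gene Pdgfa encode the central receptor and ligand of OPC division, and the stretches of 250 bases just upstream of their gene starts are shown because they differ in composition. Both are from RefSeq on the rat build GRCr8, which is not the build of the deposited table. The Pdgfra stretch is chr14:33408517-33408766 on the minus strand, and the Pdgfa stretch is chr12:20759116-20759365 on the plus strand. Capitals mark any match, on either strand, to GGGCGG (the GC box), CCAAT (the CCAAT box), CANNTG (the E-box bound by bHLH factors such as Olig2) or TGANTCA. The last is a loose form of the AP-1 site TGA(G/C)TCA that allows any middle base.
Pdgfra: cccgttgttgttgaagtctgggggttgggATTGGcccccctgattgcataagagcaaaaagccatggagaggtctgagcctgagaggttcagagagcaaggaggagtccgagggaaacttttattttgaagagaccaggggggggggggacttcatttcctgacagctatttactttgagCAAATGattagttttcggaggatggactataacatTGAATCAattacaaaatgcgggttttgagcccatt
Pdgfa: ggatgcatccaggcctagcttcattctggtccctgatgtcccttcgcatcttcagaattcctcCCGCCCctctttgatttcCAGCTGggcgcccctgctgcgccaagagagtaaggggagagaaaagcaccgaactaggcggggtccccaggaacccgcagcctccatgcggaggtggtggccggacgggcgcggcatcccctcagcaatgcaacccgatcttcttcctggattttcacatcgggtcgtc
The Pdgfra stretch was 47.2% G and C and held 1 CCAAT box and 1 E-box, with no GC box. It also held 1 match to the loose AP-1 pattern, with A as the middle base. The Pdgfa stretch was 60.8% G and C and held 1 GC box and 1 E-box. Among 33469 upstream stretches of the same length, the median was 51.2% G and C. Of them, 30.5% held a GC box, 34.0% a CCAAT box, 65.5% an E-box and 6.34% a match to the loose AP-1 pattern. A match is a run of letters and does not show that a factor bound there.

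Pdgfra was the most abundant of the 7 transcripts in both libraries. Its level was 23.2 TPM (a transcript level corrected for gene length and library total) with Aβ, against 24.6 TPM in the control, from 1514 and 1622 reads. By TPM it ranked 6165th of 17049 genes with Aβ and 5936th in the control. Its read ratio, Aβ over control in reads per library total, was 0.931 (95% interval 0.867 to 0.999), so its level was slightly lower with Aβ and the interval only just excluded equality. On TPM alone the ratio was 0.943. At this depth the interval spans only a narrow range, and its lower bound of 0.867 is far from a 2-fold loss.

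Pdgfrb, the β receptor, stood at 0.84 TPM (Aβ) and 0.92 TPM (control), from 45 and 49 reads. Its read ratio was 0.916 (0.597 to 1.40), and the intervals of the 2 levels overlapped. Per length, Pdgfra stood 27.6-fold above Pdgfrb with Aβ (20.5 to 38.0) and 26.7-fold above it in the control (20.1 to 36.3). Pdgfra therefore made up 96.5% and 96.4% of the TPM of the pair of signalling receptors, and these shares differed by less than their counting error.

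Pdgfrl encodes a PDGF receptor-like protein that resembles the extracellular part of the receptors and has no kinase domain. With Aβ it was at 0.97 TPM, from 12 reads, and without Aβ at 2.68 TPM, from 33 reads. Its read ratio of 0.363 (0.171 to 0.721) was the lowest of the 7 genes, and its levels differed beyond counting error. On the log2(TPM + 1) scale the difference was −0.90, short of 2-fold because the added 1 TPM weighs on a low gene. With 0.5 or 0.1 TPM added in its place it was −1.11 and −1.38, past 2-fold. Of 943 genes at 1 TPM or more with whole read numbers and 20 to 100 reads over both libraries, 10 (1.06%) had a ratio as low or lower. Pdgfrl passed this 1 TPM filter only through the control, where it was higher, so its place among them is not a test.

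Among the ligands Pdgfc, the C chain, stood highest, at 8.52 TPM (Aβ) and 7.39 TPM (control), from 72 and 62 reads. Pdgfa followed at 4.37 and 4.09 TPM, from 55 and 51 reads. Pdgfd, the D chain, was at 1.22 and 1.79 TPM, from 13 and 19 reads. Pdgfb, the B chain, was lowest, at 0.41 and 0.48 TPM from 6 and 7 reads. All 4 chains were thus detected, and the order of their levels was the same in both libraries, by TPM and by reads.

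None of the 4 ligand genes differed between the libraries beyond counting error. The read ratio was 1.16 for Pdgfc (0.813 to 1.65) and 1.08 for Pdgfa (0.721 to 1.61). It was 0.682 for Pdgfd (0.310 to 1.46) and 0.855 for Pdgfb (0.237 to 2.97). Together the chains had 146 (Aβ) and 139 (control) reads, a ratio of 1.05 (0.825 to 1.33). The interval of Pdgfb holds a 2-fold difference in either direction and that of Pdgfd a 2-fold lower level, so the counts do not exclude such differences.

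**Figure D1:**
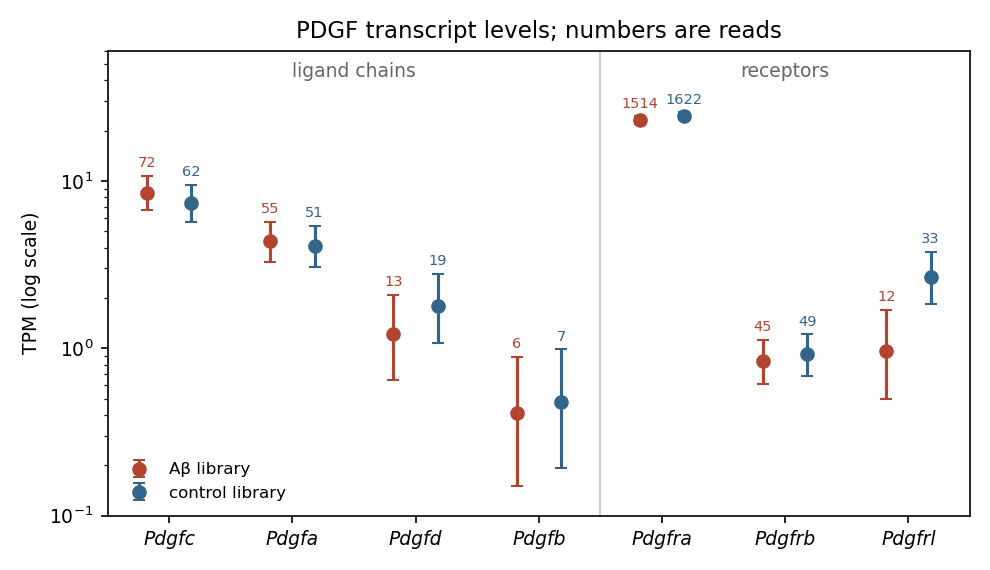
Level of each PDGF gene in TPM (log axis) in the Aβ library and the control library, with the number of reads above each point; bars are 95% exact Poisson intervals of the reads, scaled to TPM. Pdgfra lies highest at 23.2 and 24.6 TPM, and Pdgfrl is the gene whose points lie furthest apart, at 0.97 and 2.68 TPM.

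In the order of levels, Pdgfra, Pdgfc and Pdgfa led in both libraries, with intervals that did not overlap from one to the next. Below them the intervals of neighbouring genes overlapped throughout. In the control Pdgfrl stood between Pdgfa and Pdgfd, and with Aβ it stood below Pdgfd. Pdgfc exceeded Pdgfa per length by 1.95-fold with Aβ (1.35 to 2.82) and by 1.81-fold in the control (1.23 to 2.67). Pdgfc made up 58.7% of the ligand TPM with Aβ and 53.7% in the control, and Pdgfa 30.1% and 29.7%.

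The ligand shares depend on the gene lengths the authors used. If FPKM was computed on the table's read totals, the Aβ library's values imply 0.809 kb for Pdgfc, 1.02 kb for Pdgfd, 1.20 kb for Pdgfa and 6.24 kb for Pdgfra. By reads alone Pdgfc made up 49.3% of the ligand reads with Aβ (95% exact Clopper-Pearson interval 41.0 to 57.7) and 44.6% in the control (36.2 to 53.3).

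The read interval lay below 1 for 2 of the 7 genes, Pdgfra and Pdgfrl, and above 1 for 0. Across 17004 genes with a read it lay below 1 for 10.0% and above 1 for 9.46%, and across the 12980 genes that reached 1 TPM in at least 1 library it lay below 1 for 12.5%. Pdgfb and Pdgfrb did not reach 1 TPM in either library, and Pdgfrl reached it only through the control, where it was higher. The share of genes with such an interval grows with reads. It lay below 1 for 15.9% of genes with 1000 to 10000 reads over both libraries, the range that holds Pdgfra, and for 6.95% of those with 20 to 100 reads, the range of Pdgfrl. By the 2-fold rule on log2(TPM + 1), 0 of the 7 genes were called, against 0.994% of the 12980. Of these genes, 26.6% had a lower log2 TPM ratio than Pdgfra and 0.570% a lower one than Pdgfrl. The ligand Pdgfc had 86.0% of genes below it and Pdgfd 4.52%.

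**Figure D2:**
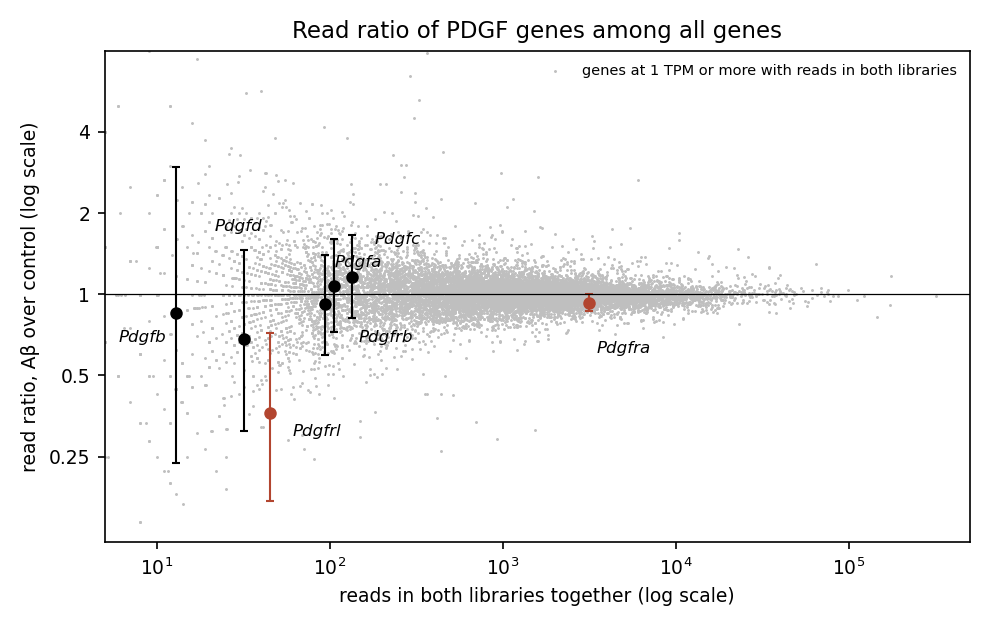
Read ratio of Aβ over control (log axis) against the reads of both libraries together (log axis), with the 7 PDGF genes over all genes at 1 TPM or more with reads in both libraries (grey); bars are 95% counting intervals, red where they exclude 1. Pdgfrl, at 0.363, lies at the lower edge of genes of its depth, while Pdgfra, at 0.931, lies inside the cloud.

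Levels of marker genes were set beside the labelled cell type, but the purity of the cultures was not tested. Olig1, Olig2 and Ptprz1 were abundant (1420.5, 336 and 866 TPM with Aβ). Sox10, a factor of the whole oligodendrocyte lineage, was low, at 0.84 TPM (Aβ) and 1.22 TPM (control), from 22 and 33 reads. Gpr17, a marker of committed precursors, had 4 and 5 reads. The OPC markers were split in direction. Of 9 measured at 1 TPM or more, 4 were called higher with Aβ and 3 lower, with a median log2 TPM ratio of 0.10. The called share was 77.8%, against 24.5% of all 12980 genes and 29.7% of those with 1000 to 10000 reads. Ptprz1 (54506 reads with Aβ) and Olig1 (27260) had more reads than that range. The OPC markers called higher, by read ratio, were C1ql1 (1.95, 1.32 to 2.91), Cspg4 (1.78), Bcan (1.10, reads not whole) and Lhfpl3 (1.08). Those called lower were Ptprz1 (0.952), Olig1 (0.908) and Olig2 (0.890). Astrocyte markers were abundant too and summed to 1790 TPM (Aβ) and 1799 TPM (control). Slc1a3 was at 1013 and 987 TPM, Gfap at 328 and 368 TPM and Gja1 at 326 and 307 TPM. All 7 microglia markers summed to 126 and 167 TPM, led by C1qa (read ratio 0.672, 0.589 to 0.765) and Aif1 (0.778, 0.635 to 0.953). Of the 6 microglia markers that reached 1 TPM, the interval excluded 1 for 33.3%, against 24.5% of all 12980 genes. The other 4 had an interval that included 1. These were Itgam (1.12, 0.986 to 1.27), Ptprc (1.02, 0.862 to 1.22), Tmem119 (0.864, 0.548 to 1.36) and Cx3cr1 (0.554, 0.274 to 1.08). The part of these cells in the ratios of the PDGF genes was not tested. Neuron markers summed to 127 and 124 TPM, mostly Map2 with Tubb3. Within that sum the low markers went both ways, with Rbfox3 at 1.85 (1.06 to 3.31), Snap25 at 1.501 (1.16 to 1.96) and Syt1 at 0.490 (0.297 to 0.790). Mature oligodendrocyte markers, Mbp highest, summed to 41.7 and 44.6 TPM. Endothelial markers, Tie1 and Tek highest, summed to 1.36 and 1.22 TPM. In such bulk RNA, fewer cells of a type and less RNA per cell cannot be told apart, so the cells that held each PDGF transcript are not known.

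Fibroblast markers were low and differed in their ratios. Col1a1 and Col1a2 had a read interval below 1, as Pdgfrl did, while those of Dcn, Col3a1 and Dpt included 1. The interval thus lay below 1 for 2 of the 3 that reached 1 TPM. That share was 12.5% over all 12980 genes and 6.95% over those with 20 to 100 reads. The 5 fibroblast markers found of 6 listed summed to 3.18 TPM (Aβ) and 6.20 TPM (control). The collagen genes Col1a2 (48.53 and 134.14 reads, not whole) and Col1a1 (26 and 61 reads) had read ratios of 0.365 (0.257 to 0.509) and 0.425 (0.258 to 0.683). Dcn, with 7 and 13 reads, was at 0.537 (0.181 to 1.45), Col3a1 at 0.956 (0.624 to 1.46), and Dpt had 3 and 2 reads. Col1a1 and Col3a1, like Pdgfrl, reached 1 TPM only through the control. The part of these cells in the lower Pdgfrl level was not tested.

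The 10 found of 11 markers of pericytes and smooth muscle, the cells best known for Pdgfrb, summed to 41.3 TPM (Aβ) and 36.3 TPM (control). Most of that was Anpep (read ratio 1.23, 1.11 to 1.37) and Notch3 (1.05, 0.948 to 1.16), which other cells also express. The members differed in level. Abcc9 and Higd1b had 0 (Aβ) and 1 (control) reads, Acta2 0 and 2, Kcnj8 3 and 4 and Vtn 1 and 3. The smooth muscle myosin gene Myh11 had 144 and 137 reads (2.21 and 2.08 TPM, read ratio 1.05, 0.824 to 1.33), more than Pdgfrb, and Des and Tagln had 22 to 33. The part of these cells in the Pdgfrb level was not tested.

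**Figure D3:**
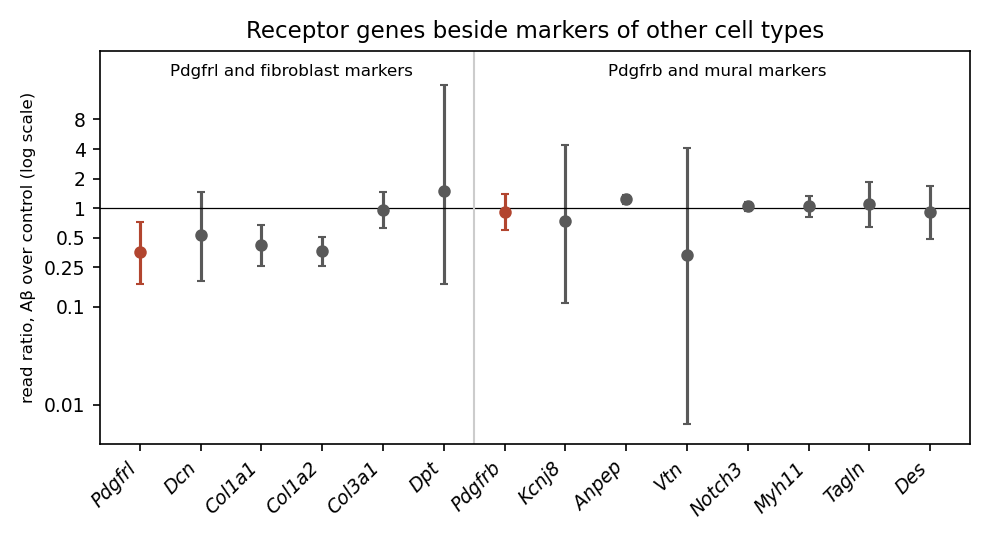
Read ratio of Aβ over control (log axis) for Pdgfrl beside the 5 fibroblast markers and for Pdgfrb beside the markers of pericytes and smooth muscle that had reads with Aβ; bars are 95% counting intervals. Pdgfrl (0.363), Col1a2 (0.365) and Col1a1 (0.425) lie below 1 with their intervals. The intervals of the fibroblast markers Dcn, Col3a1 and Dpt and of Pdgfrb (0.916) include 1.

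Around the ligands, the list of proteins that cleave or bind PDGF held the largest ratio among the pathway lists. Cspg4 encodes the NG2 proteoglycan, which binds PDGF-AA at the OPC surface. Its level was 6.65 TPM (Aβ) and 3.70 TPM (control), from 540 and 303 reads, a ratio of 1.78 (1.54 to 2.05). Plau (urokinase), a protease that releases active PDGF-DD, was at 1.23 (1.13 to 1.34). Plat (tissue plasminogen activator), which releases active PDGF-CC, was abundant at 201 and 191 TPM, with a ratio of 1.04 (1.001 to 1.088) on reads that were not whole. With scaling by the median ratio its interval included 1 (lower bound 0.9992). Lrp1, a co-receptor of the β receptor, was at 1.06 (1.03 to 1.10).

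Extracellular partners also lay below 1. A2m (α2-macroglobulin), a scavenger that binds PDGF, was at 0.710 (0.669 to 0.754), on reads that were not whole. Sparc, a matrix protein that binds the B chain, was at 0.951 (0.906 to 0.999). Of the 9 genes of this list at 1 TPM or more, 4 had a read interval above 1 and 2 below it (66.7%). The share was 24.5% over all 12980 genes and 29.7% over those with 1000 to 10000 reads. The median log2 TPM ratio was 0.05, against 0.01 over all 12980 genes.

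Among adaptors and kinases recruited to the activated receptor, the differences were small. Of 23 measured, 3 had an interval above 1 and 6 below it (39.1%, against 24.5% of all 12980 genes and 29.7% of those with 1000 to 10000 reads), none was 2-fold apart, and the median log2 TPM ratio was −0.01. The adaptor Shc1 (0.897, 0.838 to 0.960) and the docking protein Gab1 (0.912, 0.851 to 0.976) were lower with Aβ, as were the PI3-kinase subunit Pik3r2 (0.925, 0.865 to 0.990) and, barely, the abundant adaptor Crk (0.962), whose interval included 1 with TMM scaling. The Ras activator Sos2 (1.11, 1.02 to 1.20), the catalytic PI3-kinase subunit Pik3ca (1.10, 1.03 to 1.18, reads not whole) and the Ras inactivator Rasa1 (1.07, 1.02 to 1.14) were higher. Fyn, a Src family kinase and the most abundant of the list, was at 260 and 257 TPM.

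The kinase cascades downstream went both ways. In the Ras to ERK list of 10, 4 had an interval that excluded 1. In this list the interval lay above 1 for Map2k2 (1.19, 1.10 to 1.28) and Araf (1.11, 1.03 to 1.20). Below 1 it lay for 2, among them the ERK1 gene Mapk3 (0.918, 0.855 to 0.986). Nras, among the most abundant there, had a ratio of 0.963 with an interval that included 1. In the PI3K to AKT and mTOR list of 13, 11 had a lower TPM with Aβ and 2 a higher one. The median log2 TPM ratio was −0.07, against 0.01 over all 12980 genes. For 10 of the 13 the interval included 1. An interval that excluded 1 was found for 23.1% of the list, against 24.5% of all 12980 genes. The interval lay below 1 for Gsk3b (0.920, 0.880 to 0.962) and Akt1 (0.956, 0.915 to 0.999) and above 1 for Mtor (1.06, 1.0045 to 1.127). Rheb, an activator of mTOR, was at 153 and 155 TPM.

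Genes that switch the receptor off were near equal in level as a group. Of 7, 28.6% had an interval that excluded 1, against 24.5% of all 12980 genes. The interval lay above 1 for the phosphatase genes Ptprj (1.11, 1.03 to 1.20) and Acp1 (1.09, 1.01 to 1.17) and below 1 for 0, with a median log2 TPM ratio of 0.03. The phosphatase gene Ptpn1 was at 40.8 and 40.3 TPM (1.02, 0.909 to 1.14). The ubiquitin ligases that mark the receptor for degradation, Cbl and Cblb, had ratios of 1.01 and 0.904 with intervals that included 1.

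The closest relatives of the PDGF genes are the other class III receptor kinases and the VEGF family. Of 10 measured, the interval lay above 1 for Vegfa (1.32, 1.22 to 1.43) and Vegfb (1.16, 1.04 to 1.30, reads not whole) and below 1 for Csf1 (0.899, 0.835 to 0.967). The interval thus excluded 1 for 30.0%, against 24.5% of all 12980 genes, and the median log2 TPM ratio was 0.02. The receptor genes Kit (1.10, 0.945 to 1.28) and Csf1r (0.941, 0.863 to 1.03) were within counting error of equal.

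Transcription factors tied to Pdgfra in the oligodendrocyte lineage were listed last. Of 7, the interval lay below 1 for Olig1 (0.908, 0.893 to 0.923) and Olig2 (0.890, 0.864 to 0.917) and above 1 for Sox5 (1.12, 1.02 to 1.23). The interval thus excluded 1 for 42.9%, against 24.5% of all 12980 genes, and the median log2 TPM ratio was −0.13. Olig1 reached 1420.5 TPM (Aβ) and 1557 TPM (control). Sox6 (1.02, 0.940 to 1.10) had an interval that included 1, and Sox10, on 22 and 33 reads, was at 0.665 (0.369 to 1.18).

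**Figure D4:**
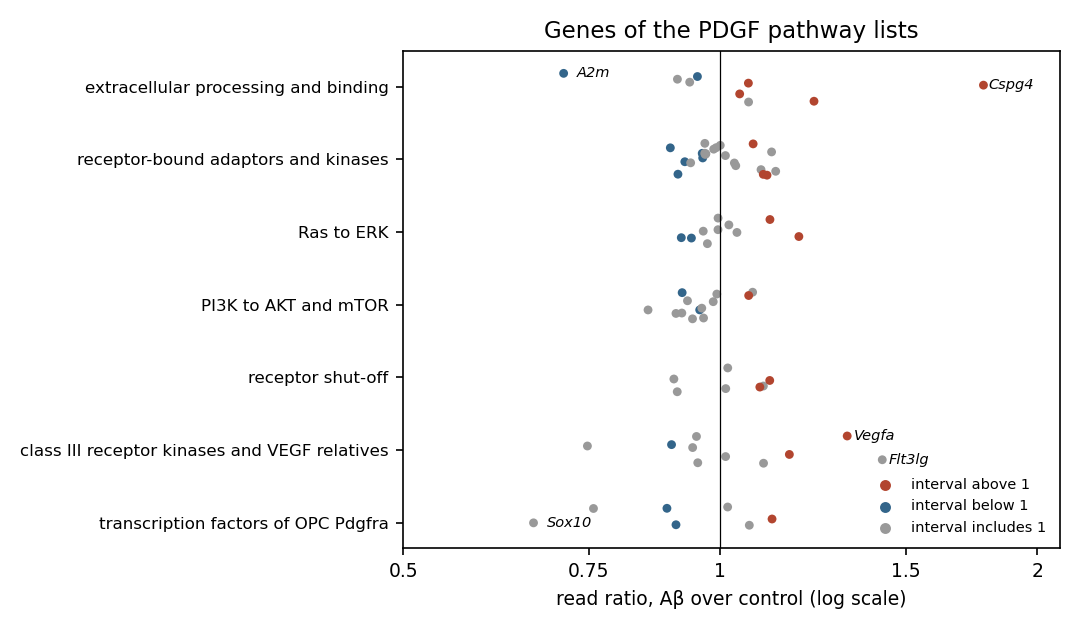
Read ratio of Aβ over control (log axis) for each gene at 1 TPM or more in the 7 pathway lists, coloured by whether its 95% counting interval lies above 1, below 1 or includes it; vertical position within a row is only for legibility. Most genes lie close to 1, and Cspg4 (1.78) and A2m (0.710) of the extracellular list and Vegfa (1.32) lie furthest out among those whose interval excludes 1.

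Over the 7 lists together, 79 of 87 genes were measured at 1 TPM or more, and the read interval excluded 1 for 30 of them (38.0%), 15 in each direction, against 24.5% of all 12980 genes. Of the 79, 60 had 1000 or more reads over both libraries, and the share with such an interval was 29.7% among genes with 1000 to 10000 reads. None was 2-fold apart. In level over the 2 libraries, the genes nearest to Pdgfra included Ssc5d (23.1 and 24.6 TPM) and Poc1b (23.3 and 24.7 TPM), by Euclidean distance in log2(TPM + 1).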

How the data were processed

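RNA from 1 Aβ-treated and 1 DMSO-treated culture was sequenced from mRNA libraries, per the labels' protocols. Since both treatment protocols mention Aβ, the group labels decided which culture was the control. Per the submitters' processing notes, the aligner was Bowtie2 and the build Rnor_6.0; for the counter, annotation and versions, the sources used here name none. The authors' deposited table gives estimated counts of reads per gene, not whole for 11.6% (Aβ) and 12.2% (control) of genes but whole for all 7 PDGF genes, and the authors also deposited TPM and FPKM. Deposited columns named normalized read count hold the counts rounded up and were not used, nor was the authors' enrichment table.

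Read ratios used reads rounded to whole numbers and divided by library totals, with 95% intervals from the exact (Clopper-Pearson) conditional binomial; no molecular identifiers are mentioned, so PCR copies count as separate reads. A gene was called higher or lower where this interval excluded 1. Log2 ratios used TPM with a pseudocount of 1, genes had to reach 1 TPM in at least 1 library, and 2-fold was the size called. Where no read was counted, up to 3 remain possible, which is 0.191 CPM (Aβ) or 0.192 CPM (control). Scaling by the median ratio and by TMM (edgeR 4.0.16, R 4.3.3) was tried, with other pseudocounts, units and filters. The steps (Python 3.11.15, scipy 1.17.1) were tested on simulated data.

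The members and lists were chosen with earlier results of these data known. The text names all 7 members and the 3 genes nearest to Pdgfra. From each list it names the 2 most abundant genes, and from each pathway list up to 6 genes whose interval excludes 1. Dcn, Col1a1, Dpt, Olig2, Sox10, Gpr17, Abcc9, Higd1b, Acta2, Kcnj8, Vtn, Myh11, Itgam and Ptprc were added after their values were seen. So were Cx3cr1, Tmem119, Gja1, Rbfox3, Snap25, Syt1, Des, Tagln, Cbl, Cblb, Kit, Csf1r, Sox6, C1ql1, Bcan and Lhfpl3. Vegfd and Lhfpl3 were matched by gene number through RefSeq (GRCr8). Crkl, Rgs5, Lum and Cldn5 were not analysed here. Upstream sequences were found for 5 of the 7 members. Some genes that the naming rule picks are not reported here.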

Additional observations from a re-analysis of the deposited data

How the results depend on the processing

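Of 89 alternative values, 83 kept their direction and stayed within counting error of the main value or within 1.5 times the main count. Under each scaling the interval of Pdgfra stayed below 1, with an upper bound of 0.997 by the median ratio and 0.999 by TMM, so this call rests on a narrow margin. Among the pathway genes, Plat lost its call by the median ratio (5 called in its list, against 6) and Crk by TMM (upper bound 1.00006). The counts of genes 2-fold apart moved with the filter: 35 higher and 34 lower at 5 TPM or more, and 26 higher and 24 lower with whole read numbers only, against 65 and 64. The Pdgfc share of the ligands moved from 58.7% and 53.7% of TPM to 49.3% (Aβ) and 44.6% (control) of reads, which are not corrected for length. The background shares within bands of reads were chosen after seeing the data. Leaving out a library was not possible with 1 per group. No paired analysis was possible because each group has 1 library. Pdgfb (13 reads over both libraries), Pdgfd (32) and Pdgfrl (45) are limited by depth.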
